A study of Mus musculus with 14 samples.

Results

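The genes described are 10 members of the Wnt pathway, chosen by symbol from the 42687 genes of the count table: the ligand Wnt5a, the ligand carrier Wls, the secreted antagonists and modulators Sfrp1, Sfrp5, Frzb, Wif1 and Dkk3, the receptor Fzd8, the feedback target Axin2 and the transcription factor Lef1. All 10 were found in the table, and their read counts were compared in the retinal pigment epithelium (RPE), the pigmented monolayer behind the photoreceptors, of mice that lack or carry Clic4, a chloride intracellular channel gene. RNAseq was done on 14 libraries from 3-month-old male C57BL/6J mice, each from RPE cells pooled from both eyes of a mouse. The 7 knockout (KO) libraries were Best1-Cre+/-; Clic4f/f, and the 7 controls were 3 wild type (WT), 2 Clic4f/f without Cre (Ctrl) and 2 Best1-Cre+/- without floxed alleles (CreCtrl). They form 3 sets without a shared library, with 3 KO libraries beside WT, 2 beside Ctrl and 2 beside CreCtrl. KO and Ctrl share the floxed alleles, and KO and CreCtrl share Cre, which the Best1 promoter drives in RPE cells, so that Clic4 could be deleted only in cells that expressed it. Cells were shaken off trypsinized eyecups after the retina was removed, with no sorting, so other cells of the eyecup could enter a library.

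Wnt proteins are lipid-modified secreted ligands that leave the producing cell bound to Wls and signal through Frizzled receptors with Lrp5 or Lrp6, which spares beta-catenin from the destruction complex and lets it act on DNA with Tcf and Lef factors. Other Wnts, of which Wnt5a is the best known, signal mostly without beta-catenin. Secreted proteins of the Sfrp, Wif and Dkk families bind Wnts or their receptors outside the cell, and in the eye Wnt signalling is known for its part in specifying RPE and in vascular and ciliary margin development.

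Levels are given as CPM, counts per 1000000 counts of the library, after TMM scaling within each set. A gene was called a DEG at an adjusted p under 0.05 in edgeR's quasi-likelihood test (Benjamini-Hochberg) and a fold change above 1.5. In KO vs. WT, 7 of the 9 members tested were DEGs: Wls, Sfrp1, Sfrp5, Fzd8 and Axin2 were higher and Wnt5a and Frzb lower. That stands beside 31.7% of all 15428 genes tested, 14.1% higher and 17.6% lower. In KO vs. CreCtrl, 2 of 9 were DEGs, Wnt5a lower and Sfrp1 higher, beside 15.6% of 15963 genes (3.46% higher, 12.2% lower). In KO vs. Ctrl, 0 of 10 were DEGs by edgeR, beside 0% of 15287 genes. There, 4 members had an unadjusted p under 0.05 with a fold above 1.5 (12.0% of all genes), and DESeq2 called 3 members (7.27% of all genes).

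**Figure D1:**
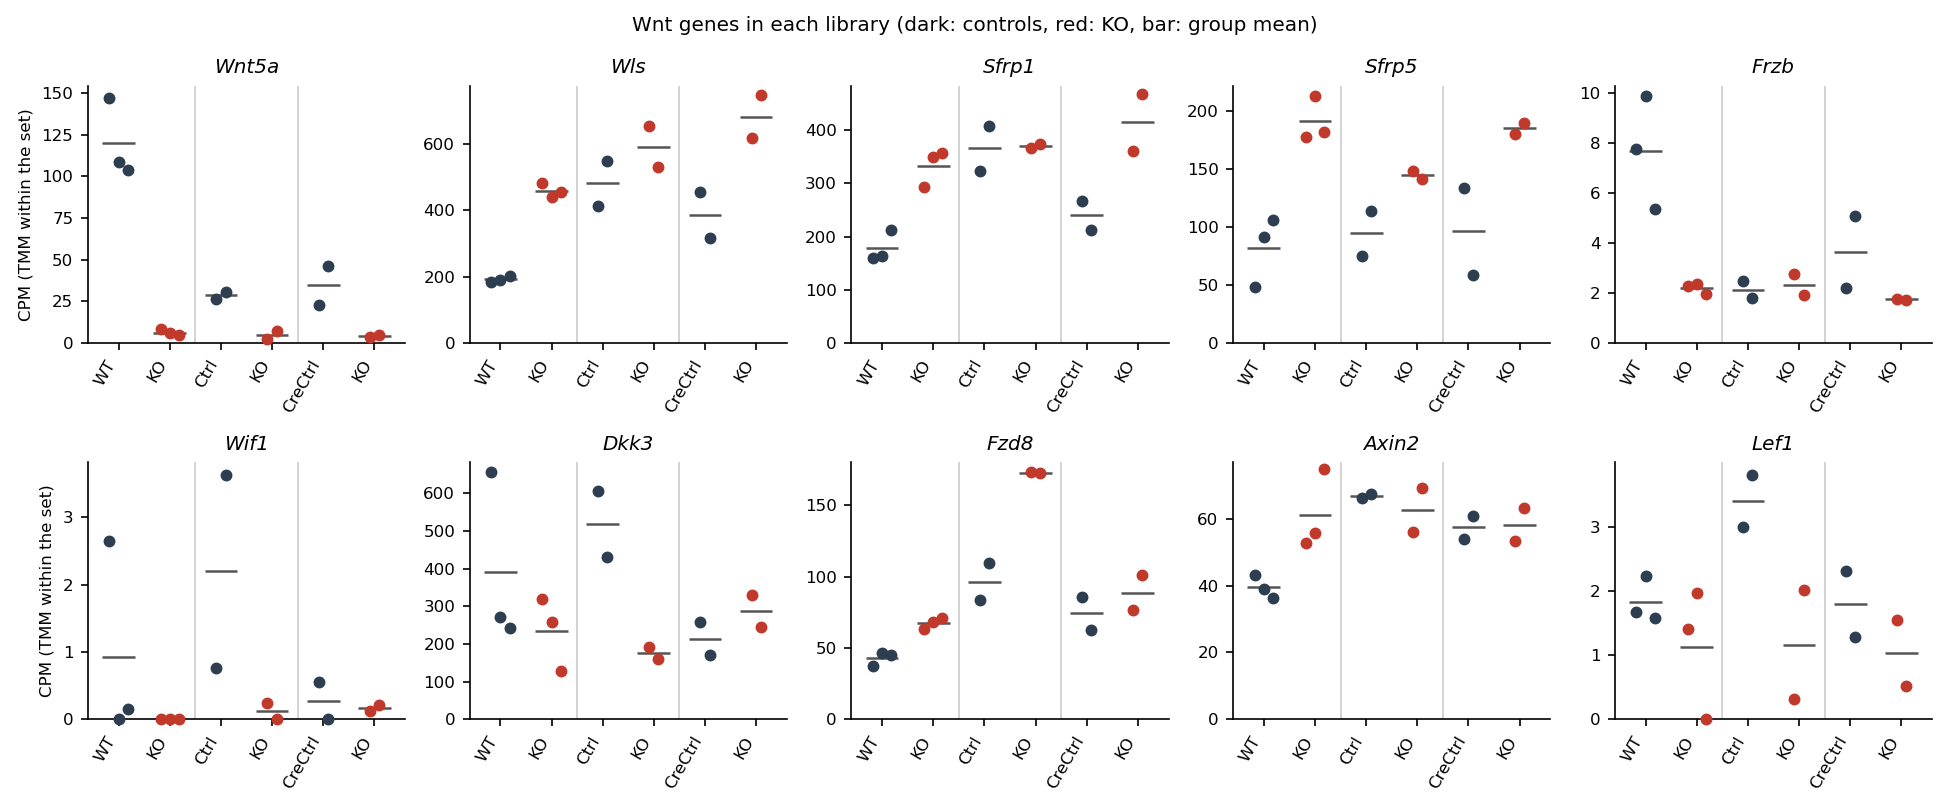
CPM of the 10 members in each of the 14 libraries, with linear axes from 0, dark points for control and red points for KO libraries, a bar for each group mean and vertical lines between the WT, Ctrl and CreCtrl sets. Wnt5a lay below its controls in all 7 KO libraries, while Axin2 was separate from its controls only in the WT set.

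Depth ranged from 9828293 to 32384166 counts, lowest in WT. Clic4, the targeted gene, was lower in every KO library than in every control of its set, with log2 fold changes of -3.32 (WT set), -2.16 (CreCtrl set) and -1.61 (Ctrl set), the last not past the threshold (adjusted p = 0.333). The controls differed in Clic4, with 240 to 249 CPM in WT, 86.5 and 109 CPM in CreCtrl and 69.2 and 59.4 CPM in Ctrl. The KO libraries of the 3 sets had 9.40 to 32.7 CPM. The labelled tissue was checked by 11 RPE markers, all above 0 in every group, whose summed level was 17520 to 25985 CPM in WT, 45926 to 58314 CPM in Ctrl and CreCtrl and 69425 to 80895 CPM in KO libraries. The summed level of 10 fibroblast markers went the other way, with 7572 to 8090 CPM in WT, 1126 to 2654 CPM in Ctrl and CreCtrl and 209 to 668 CPM in KO libraries, and none of them was at 0 in any group. The rise of the RPE sum was not shared by every RPE marker. Of the 11, 10 were DEGs higher in KO vs. WT, and 1 was higher and 1 lower in KO vs. CreCtrl. In KO vs. Ctrl 0 were DEGs and 3 had a negative log2 fold change. Pmel had 199 to 713 CPM in Ctrl against 143 to 144 CPM in KO, and 294 to 331 CPM in CreCtrl against 127 to 150 CPM. Of the fibroblast markers, 10 of 10 were DEGs lower in KO vs. WT, 9 of 10 in KO vs. CreCtrl and 0 of 10 in KO vs. Ctrl. In KO vs. CreCtrl, 8 of 8 rod, 6 of 8 endothelial and 7 of 9 myeloid markers were DEGs lower as well, the rod markers with 234 to 350 CPM in KO against 980 to 4667 CPM in CreCtrl. In KO vs. WT these counts were 0, 7 and 8, and in KO vs. Ctrl 0 for each list. The summed level of 9 immediate-early genes was also lower in KO, at 272 to 1887 CPM against 4182 to 14835 CPM in the controls. The shifts of the RPE, fibroblast and immediate-early sums run along every KO comparison below. Those of the rod and myeloid markers do not. Rod log2 fold changes were positive for 8 of 8 markers against WT and against Ctrl, and negative for 8 of 8 against CreCtrl. Myeloid ones were negative for 8 of 9 against WT and against CreCtrl, and positive for 6 of 9 against Ctrl. The part of all these shifts in the values of the Wnt genes was not tested. In such bulk libraries fewer cells of a type and less RNA per cell cannot be told apart.

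The stretches before the start sites of 3 of the 5 members that were DEGs higher in KO vs. WT are shown. These are Wls, Sfrp5 and Axin2, the member most used as a readout of beta-catenin and Tcf. RefSeq (GRCm38.p6) windows were matched for 6 of the 10 members, in 9 windows, and the 250 bases before each start were searched on both strands. The TCF/LEF core CTTTGAT was in 0 of the 9 windows and in 3.21% of all 32851 windows, and its shorter form CTTTGA, which the first contains, in 2 of 9 (Frzb and a Lef1 start) and in 13.8% of all. The GC box GGGCGG was in 8 of 9 windows and in 32.7% of all, and is in capitals below. The windows are not separate members, since 4 of the 9 are of Lef1 and 2 of those overlap and hold the same GC box. The sequences read 5′ to 3′ on the gene's strand and end at the base before the start, at chr3:159839400-159839649 (+) for Wls, chr19:42202253-42202502 (-) for Sfrp5 and chr11:108920099-108920348 (+) for Axin2.
Wls: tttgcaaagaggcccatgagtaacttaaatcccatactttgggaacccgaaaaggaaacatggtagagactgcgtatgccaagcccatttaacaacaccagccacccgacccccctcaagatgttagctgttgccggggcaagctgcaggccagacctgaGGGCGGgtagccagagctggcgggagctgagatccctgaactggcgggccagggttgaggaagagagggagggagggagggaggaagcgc
Sfrp5: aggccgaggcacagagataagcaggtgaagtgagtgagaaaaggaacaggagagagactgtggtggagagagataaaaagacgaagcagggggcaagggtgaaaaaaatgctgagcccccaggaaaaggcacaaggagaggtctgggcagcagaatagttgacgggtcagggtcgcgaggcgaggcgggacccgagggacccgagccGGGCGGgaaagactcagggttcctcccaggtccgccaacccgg
Axin2: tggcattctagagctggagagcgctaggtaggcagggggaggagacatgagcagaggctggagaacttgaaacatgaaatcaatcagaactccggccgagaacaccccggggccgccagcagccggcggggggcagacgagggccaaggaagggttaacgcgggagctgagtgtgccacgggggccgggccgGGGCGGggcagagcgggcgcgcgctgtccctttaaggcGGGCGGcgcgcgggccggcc
Wls and Sfrp5 each held 1 GC box, which began 90 and 43 bases before the start, and Axin2 held 2, at 58 and 20 bases before it.

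Wnt5a (ENSMUSG00000021994, GRCm38 chr14:28504750-28527448, plus strand, 7 exon blocks), the ligand known for beta-catenin-independent signalling, showed the largest change of the 9 members tested in KO vs. WT and KO vs. CreCtrl. It had 147, 109 and 104 CPM in WT and 8.37, 5.75 and 4.62 CPM in the KO libraries of that set. The log2 fold change was -4.26 (SE 0.26, adjusted p = 2.79e-05), a 19.2-fold lower level. The lowest WT library stood far above the highest KO library, and no library left out ended the call (adjusted p = 3.06e-05 to 0.000328). CreCtrl libraries had 22.6 and 46.5 CPM and their KO libraries 3.82 and 4.85 CPM, a log2 fold change of -2.99 (SE 0.37, adjusted p = 0.00615), which also held without each library. Ctrl libraries had 26.5 and 30.5 CPM against 2.194 and 7.071 CPM in KO, a log2 fold change of -2.62 (SE 0.58) that edgeR did not call (adjusted p = 0.138, unadjusted p = 0.00496 from the same edgeR model) and DESeq2 did (adjusted p = 0.000824). The groups did not overlap in any set. The KO libraries of the 3 sets lay together, at 2.194 to 8.37 CPM, while the controls were split, with WT above every Ctrl and CreCtrl library. The KO effects of the WT and Ctrl sets differed by -1.51 in log2 fold change, which did not pass the test of the difference (adjusted p = 0.160). Over its exons Wnt5a shares 4.58% of its length with an antisense gene, Gm2670, and since the counting is not stated to use strand, reads of both cannot be told apart.

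Wls (ENSMUSG00000028173, chr3:159839672-159938664, plus strand, 13 exon blocks) encodes the membrane protein that carries lipid-modified Wnts to the cell surface, and it moved against Wnt5a. WT libraries had 183, 190 and 201 CPM and their KO libraries 483, 440 and 455 CPM. The rise was 2.40-fold (log2 fold change 1.26, SE 0.11, adjusted p = 9.41e-05) and was called without any 1 of the 6 libraries. In the CreCtrl set, 455 and 317 CPM stood against 618 and 747 CPM in KO, without overlap, and the log2 fold change of 0.82 (SE 0.23) missed the threshold (adjusted p = 0.0531). The log2 fold change was 1.10 without CreCtrl replicate 1. With no library left out, DESeq2 called Wls there (adjusted p = 0.00169), beside 3429 of 15963 genes. In the Ctrl set the groups overlapped, with 414 and 549 CPM in Ctrl and 654 and 530 CPM in KO (log2 fold change 0.30, SE 0.27, adjusted p = 0.834). The WT libraries were the low ones, with less Wls than any other library.

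The antagonists and modulators did not move as a group. Of the 5, Sfrp1 and Sfrp5 were DEGs higher in KO vs. WT, Frzb a DEG lower, Dkk3 did not pass, and Wif1 was too low to be tested. Sfrp1 (ENSMUSG00000031548, chr8:23411502-23449632, plus strand, 3 exon blocks), a secreted Frizzled-related protein that binds Wnts, had 160, 164 and 212 CPM in WT and 292, 349 and 356 CPM in KO. Its log2 fold change was 0.90 (SE 0.15, adjusted p = 0.00213), and the groups did not overlap. CreCtrl libraries had 267 and 213 CPM and their KO libraries 361.4 and 467.6 CPM, a log2 fold change of 0.79 (SE 0.21, adjusted p = 0.0470). That call was lost without CreCtrl replicate 2 or KO replicate 2 (log2 fold change 0.60 in each, adjusted p up to 0.287). In the Ctrl set the levels were alike in size, with 324 and 407 CPM in Ctrl around 366 and 374 CPM in KO (log2 fold change 0.02, SE 0.24, adjusted p = 0.992).

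Sfrp5 (ENSMUSG00000018822, chr19:42197971-42202252, minus strand, 3 exon blocks), a close relative of Sfrp1, was higher in every KO library than in every control of its set. WT libraries had 47.9, 91.4 and 106 CPM and KO libraries 177, 213 and 182 CPM (log2 fold change 1.22, SE 0.26, adjusted p = 0.00676). WT replicate 1 was the low library, and the call held without it (adjusted p = 0.00257 to 0.0213 over all left-out libraries). CreCtrl libraries had 133 and 58.8 CPM against 180 and 190 CPM in KO, a log2 fold change of 0.94 (SE 0.34, adjusted p = 0.0917). It was 1.65 without CreCtrl replicate 1. Ctrl libraries had 74.7 and 114 CPM against 148.2 and 141.6 CPM in KO, a log2 fold change of 0.62 (SE 0.28, adjusted p = 0.485). The order was the same in the 3 sets, and the KO libraries spread less than their controls in each.

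Frzb (ENSMUSG00000027004, chr2:80411970-80447625, minus strand, 6 exon blocks), also called Sfrp3 and likewise a Wnt-binding antagonist, was low and fell in the WT set. WT libraries had 7.77, 9.87 and 5.36 CPM (71 to 106 counts) and KO libraries 2.28, 2.37 and 1.94 CPM (29 to 35 counts), without overlap. The log2 fold change was -1.80 (SE 0.51, adjusted p = 0.0254). The call rested on single libraries: it was lost without WT replicate 1, WT replicate 2, KO replicate 1, KO replicate 2 or KO replicate 3 (adjusted p = 0.0557 to 0.0989) and held only without WT replicate 3 (adjusted p = 0.0384). CreCtrl libraries had 2.18 and 5.06 CPM and their KO libraries 1.75 and 1.73 CPM (log2 fold change -1.04, SE 0.51, adjusted p = 0.172). Without CreCtrl replicate 1 the log2 fold change there was -1.54. Ctrl libraries had 2.49 and 1.78 CPM and their KO libraries 2.76 and 1.90 CPM, which overlapped (log2 fold change 0.13, SE 0.60). Outside the WT group, every library but CreCtrl replicate 2 lay between 1.73 and 2.76 CPM.

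Dkk3 (ENSMUSG00000030772, chr7:112116017-112159057, minus strand, 8 exon blocks), a divergent Dickkopf protein, had the highest median level per kilobase of the 10 in the control libraries and no constant direction. WT libraries had 655, 271 and 244 CPM and KO libraries 319, 257 and 130 CPM, which overlapped (log2 fold change -0.73, SE 0.43, adjusted p = 0.231). WT replicate 1 was well above the rest, and the lowest and highest log2 fold changes with a library left out were -0.98 and -0.13. Ctrl libraries had 605 and 431 CPM and their KO libraries 191 and 161 CPM, without overlap. That log2 fold change, -1.56 (SE 0.28), was not called by edgeR (adjusted p = 0.116, unadjusted p = 0.00175 from the same edgeR model) and was by DESeq2 (adjusted p = 7.90e-06). In the CreCtrl set the KO libraries, at 330 and 246 CPM, overlapped the controls at 257 and 171 CPM from above (log2 fold change 0.43, SE 0.25, adjusted p = 0.243). Without CreCtrl replicate 1 the log2 fold change there was 0.75. The KO effects of the Ctrl and CreCtrl sets differed by -2.02 (SE 0.67) in log2 fold change, not past the test of the difference (adjusted p = 0.486).

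Wif1 (ENSMUSG00000020218, chr10:121033960-121100650, plus strand, 10 exon blocks), a secreted Wnt inhibitory factor, was near the floor. It had 30, 0 and 2 counts in WT and 0, 0 and 0 counts in the KO libraries of that set, 12 and 102 counts in Ctrl against 4 and 0 in KO, and 13 and 0 counts in CreCtrl against 3 and 6 in KO. By counting error alone, a count of 0 allows up to 3 counts, or 0.183 to 0.187 CPM in the KO libraries of the WT set. It was tested only in the Ctrl set, where the log2 fold change was -4.11 (SE 1.48, adjusted p = 0.336). Ctrl replicate 2 alone held the high value.

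**Figure D2:**
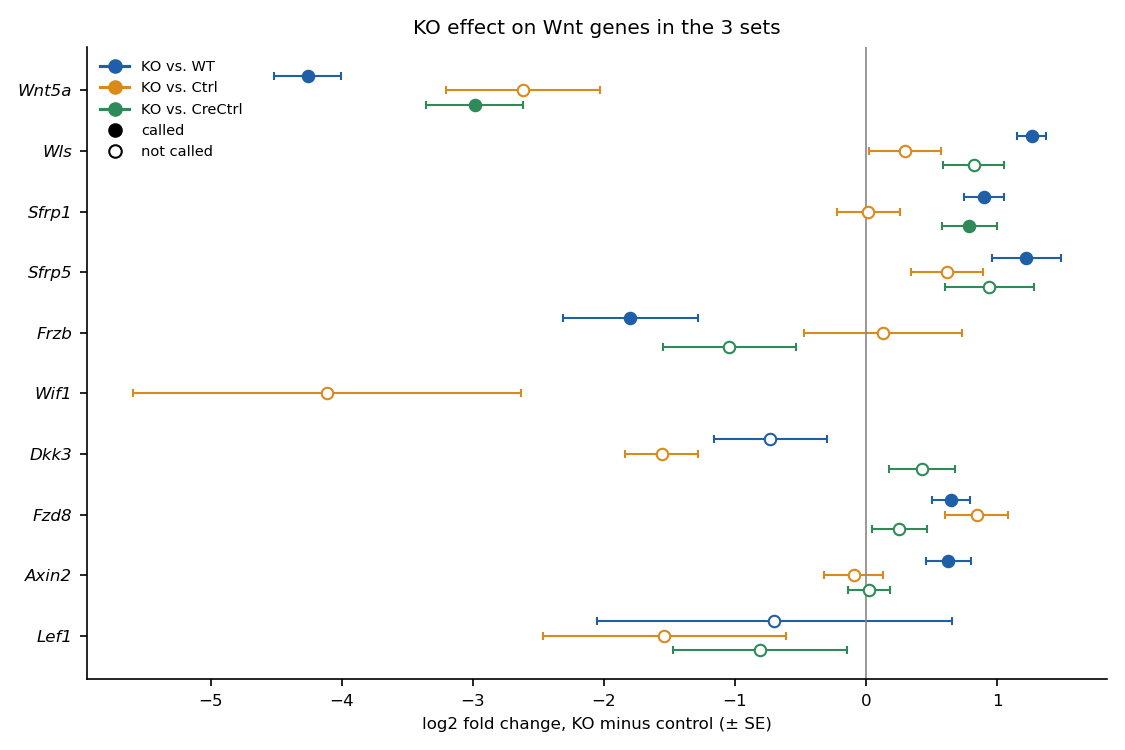
Log2 fold change (KO minus control) of each member in the WT (blue), Ctrl (orange) and CreCtrl (green) sets, with bars of 1 SE and filled points for DEGs. Wnt5a lay between -4.26 and -2.62 in the 3 sets, and the points of Dkk3 and Axin2 fell on both sides of 0.

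Fzd8 (ENSMUSG00000036904, on chromosome 18, plus strand, a single exon block), a Frizzled receptor for Wnts, was higher in KO with a modest size. WT libraries had 37.5, 46.4 and 45.1 CPM and KO libraries 63.2, 68.1 and 70.9 CPM, without overlap (log2 fold change 0.65, SE 0.14, adjusted p = 0.00759). The fold of 1.57 was close to the limit of 1.5, and without WT replicate 1 the log2 fold change of 0.56 fell under that limit (adjusted p = 0.0195). Ctrl libraries had 83.4 and 109 CPM against 173 and 173 CPM in KO, a log2 fold change of 0.84 (SE 0.24) that edgeR did not call (adjusted p = 0.203) and DESeq2 did (adjusted p = 0.0377). CreCtrl libraries had 85.7 and 62.9 CPM and their KO libraries 76.3 and 101 CPM, which overlapped (log2 fold change 0.25, SE 0.21, adjusted p = 0.404). The highest libraries of all were the KO libraries of the Ctrl set, and the lowest were WT.

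Axin2 (ENSMUSG00000000142, chr11:108920349-108950783, plus strand, 14 exon blocks), a scaffold of the destruction complex that beta-catenin signalling itself induces, was a DEG in the WT set only. WT libraries had 43.1, 39.1 and 36.4 CPM and KO libraries 52.6, 55.8 and 74.9 CPM (log2 fold change 0.63, SE 0.17, adjusted p = 0.0225). The groups did not overlap, and the call was lost when WT replicate 2, WT replicate 3 or KO replicate 3 was left out (log2 fold change 0.62, 0.57 and 0.55, adjusted p = 0.0598, 0.0760 and 0.0462, the last under the fold limit). In the Ctrl set, 66.2 and 67.5 CPM lay within the KO values of 55.9 and 69.2 CPM (log2 fold change -0.10, SE 0.22). In the CreCtrl set, 53.9 and 60.8 CPM lay within the KO values of 53.4 and 63.1 CPM (log2 fold change 0.02, SE 0.16). The WT libraries were lower than all the others. The difference between the KO effects of the WT and Ctrl sets was 0.86 in log2 fold change (adjusted p = 0.0611) and that between the WT and CreCtrl sets 0.71 (adjusted p = 0.181), so the test of the difference was passed by neither. Axin2 shares 3.80% of its exon length with the antisense gene Gm11670.

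Lef1 (ENSMUSG00000027985, chr3:131110471-131224356, plus strand, 14 exon blocks), the transcription factor that binds DNA with beta-catenin, was low in all libraries and shares 13.7% of its exon length with the antisense gene Gm43352. WT libraries had 1.68, 2.23 and 1.59 CPM (19 to 24 counts) and KO libraries 1.41, 1.96 and 0 CPM, which overlapped (log2 fold change -0.70, SE 1.35, adjusted p = 0.742). Ctrl libraries had 3.00 and 3.81 CPM and their KO libraries 0.313 and 2.01 CPM, without overlap (log2 fold change -1.54, SE 0.93, adjusted p = 0.676). CreCtrl libraries had 2.31 and 1.28 CPM and KO libraries 1.55 and 0.520 CPM, which overlapped (log2 fold change -0.81, SE 0.66, adjusted p = 0.399). The log2 fold change was negative in the 3 sets, with errors as large as the values in the WT set, and no difference was detectable at this depth.

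Counted by library, KO and control values did not overlap for 7 of 9 members tested in the WT set (52.1% of all genes tested), 6 of 10 in the Ctrl set (41.0%) and 5 of 9 in the CreCtrl set (71.7%). The shares of the members thus stood on both sides of those of all genes. Against WT, Ctrl and CreCtrl, the members had median log2 fold changes of 0.63, -0.04 and 0.25, beside -0.08, 0.01 and -0.02 over all genes tested.

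With the set as a term and all 14 libraries in a single fit, 6 of 9 members tested were DEGs, beside 27.8% of 14925 genes (11.0% higher, 16.8% lower). Wnt5a was lower (log2 fold change -3.39, SE 0.33, adjusted p = 1.57e-05) and so was Frzb (-1.01, SE 0.35, adjusted p = 0.0339). Higher were Sfrp5 (1.01, SE 0.21, adjusted p = 0.00228), Wls (0.90, SE 0.17, adjusted p = 0.00129), Sfrp1 (0.65, SE 0.16, adjusted p = 0.00500) and Fzd8 (0.63, SE 0.12, adjusted p = 0.00158). The calls of Wnt5a, Wls and Sfrp5 held without each of the 14 libraries. The call of Sfrp1 was lost without WT replicate 1 or WT replicate 2 and that of Fzd8 without WT replicate 1 or Ctrl replicate 1, each for a fold under the limit (log2 fold change 0.54 to 0.57), and without WT replicate 1 only 3 members were called. That of Frzb was lost without 8 of the 14 libraries, namely WT replicates 1 and 2, CreCtrl replicate 2, the KO replicates 1, 2 and 3 of the WT set and 1 and 2 of the CreCtrl set (highest adjusted p = 0.0995). Axin2 (log2 fold change 0.28, adjusted p = 0.134), Dkk3 (-0.60, adjusted p = 0.162) and Lef1 (-0.93, adjusted p = 0.283) did not pass.

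Whether the KO effect differed between sets was tested in a fit of the 6 groups. Wls and Sfrp1 had a larger KO effect in the WT set than in the Ctrl set, by 1.11 (SE 0.27, adjusted p = 0.0332) and 1.02 (SE 0.26, adjusted p = 0.0410) in log2 fold change, beside 5.15% of 17662 genes past this test. Between the WT and CreCtrl sets 0 members passed (1.49% of all genes) and between the Ctrl and CreCtrl sets 0 members (0% of all genes). At an unadjusted edgeR p under 0.05, Axin2 passed in the first of these and Sfrp1 and Dkk3 in the second. Of 68 other pathway genes tested, 15 and 11 did so. Between the WT and Ctrl sets, 5 of 10 members and 17 of the 68 pathway genes did so. The share of all genes past this unadjusted threshold was not counted, so no difference between sets is read from it. Since each set holds a single control genotype, the effects of genotype and of set cannot be told apart. Both calls were lost without Ctrl replicate 2 (0.81 and 0.77, adjusted p = 0.222 and 0.255), KO replicate 2 of the Ctrl set, WT replicate 1, WT replicate 2 or the KO replicates 2 and 3 of the WT set. The call of Wls was also lost without KO replicate 1 of the WT set, and that of Sfrp1 without KO replicate 1 of the Ctrl set or either KO replicate of the CreCtrl set, which makes 7 and 9 of the 14 libraries. Both were also lost with RLE factors (adjusted p = 0.0578 and 0.0736) and with library size alone (adjusted p = 0.0702 and 0.0936). Neither passed with a term for the replicate number in the fit.

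Levels between genes can be compared only per exon length. On CPM per kilobase, scaled over the 14 libraries, the order of the medians in the 7 control libraries was Dkk3 (76.7), Sfrp1 (48.3), Sfrp5 (44.5), Wls (35.7), Fzd8 (10.5), Axin2 (9.81), Wnt5a (5.90), Frzb (1.504), Lef1 (0.235) and Wif1 (0.229). Neighbours whose ranges did not overlap were Wls over Fzd8, Wnt5a over Frzb and Frzb over Lef1, and all the other neighbours overlapped. In the 7 KO libraries the order was Sfrp5 (95.9), Sfrp1 (85.9), Dkk3 (73.4), Wls (62.6), Fzd8 (13.3), Axin2 (10.6), Wnt5a (0.622), Frzb (0.609), Lef1 (0.163) and Wif1 (0). There, Wls over Fzd8, Axin2 over Wnt5a and Frzb over Lef1 did not overlap. Wnt5a thus kept its rank, clear of Frzb in the controls and level with it in KO. In WT libraries it ranked higher, at 12.1 to 17.5 CPM per kilobase, above Fzd8 and Axin2 in all 3 libraries.

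The members differed in how they ran with the cell type markers. The correlations here are Pearson's, on log2 CPM, and are descriptions over 7 control and 7 KO libraries taken apart; the controls include the 3 WT libraries, which stood apart in most of these measures. Wnt5a ran with the fibroblast markers (r = 0.92 in the controls, 0.75 in KO) and with the immediate-early genes (0.87 and 0.92). Wls ran with the RPE markers in the controls (0.98) and not in KO (-0.13), and Sfrp1 did likewise (0.92 and 0.10). Fzd8 (0.97 and -0.68) and Axin2 (0.88 and -0.40) also followed the RPE markers in the controls only. Frzb ran against them in the controls (-0.92) and weakly in KO (-0.25). Sfrp5 followed them in both, more closely in KO (0.60 and 0.94). Dkk3 did not follow the RPE markers in the controls (0.00), had r = 0.59 with them in KO, and ran against the rod markers in both (-0.59 and -0.62). In the controls the fibroblast markers gave r of like size and opposite sign for Wls (-0.99), Sfrp1 (-0.94), Fzd8 (-0.97) and Axin2 (-0.95). Frzb ran with the fibroblast markers there (0.92), and Wnt5a ran against the RPE markers (-0.96). For these members the control correlations thus did not tell the 2 lists apart.

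**Figure D3:**
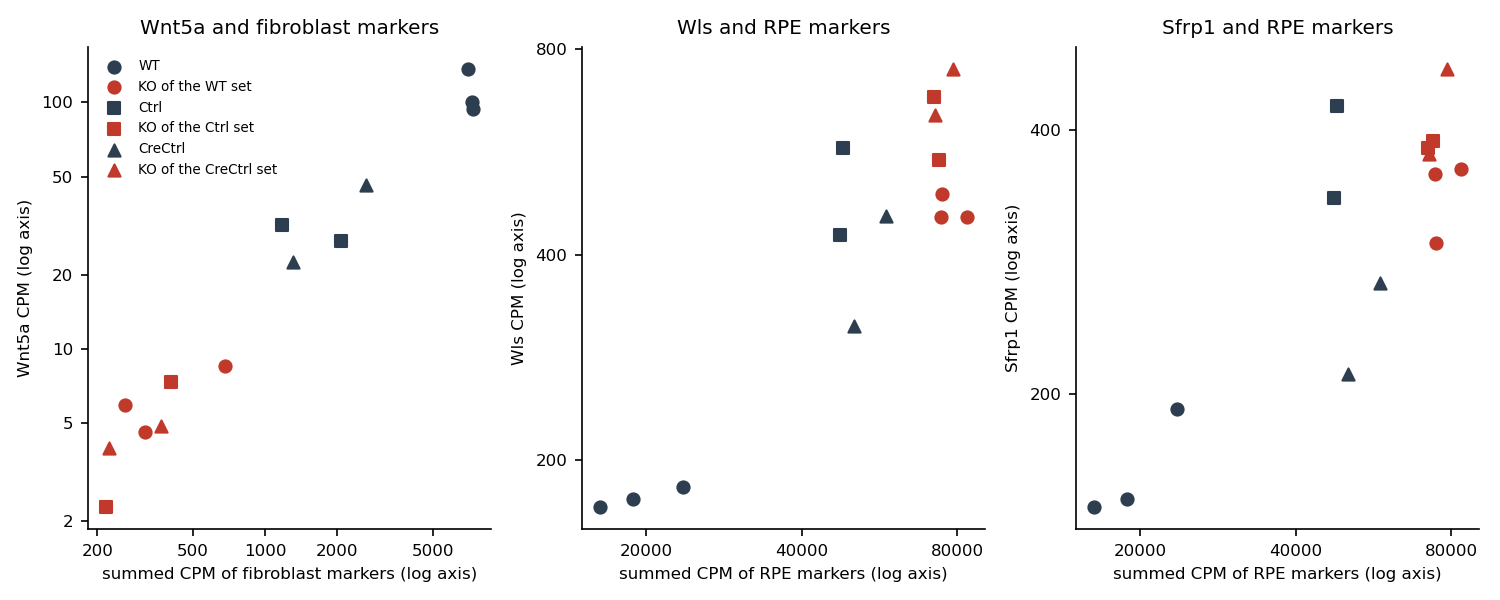
CPM of Wnt5a against the summed CPM of 10 fibroblast markers, and of Wls and Sfrp1 against that of 11 RPE markers, in the 14 libraries (CPM scaled over all libraries, log axes; circles WT set, squares Ctrl set, triangles CreCtrl set, red KO). On the marker axis of each panel the 3 WT libraries stand at one end and the 7 KO libraries at the other, while on the axis of Sfrp1 the Ctrl libraries lie among KO libraries.

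Over the 14 libraries, and so with the difference between KO and control included, the 3 genes most like each member called at least once were found among 13292 named protein-coding genes. Wnt5a was most like Ece1 (r = 0.99), an endothelin-converting enzyme, Ier2 (0.98), an immediate-early gene, and Lrrc32 (0.98), a membrane protein that holds latent TGF-beta. Wls was most like Tax1bp1 (0.996), an autophagy receptor, Atp6v1a (0.995), a subunit of the vacuolar proton pump, and Crim1 (0.992). Sfrp1 was most like the glucose transporter gene Slc2a12 (0.99), Vat1l (0.98) and the anion channel subunit gene Lrrc8d (0.98). Sfrp5 was most like Ndrg2, Ltbr and Plbd1 (0.96 to 0.97), Frzb most like Zcchc14, Cadm3 and Scara5 (0.93 to 0.94), Fzd8 most like Hist3h2a, Smim14 and Abhd3 (0.93 to 0.94) and Axin2 most like Casp6, Eps8l2 and Arid1a (0.92 to 0.93). In the 7 KO libraries alone the likeness held for the genes of Wnt5a (0.85 to 0.97) and Wls (0.93 to 0.99) and was lower for those of Frzb (0.08 to 0.67).

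A list of 80 other genes of the pathway was read from the same fits. In KO vs. WT, 27 of the 61 tested were DEGs, 5 higher and 22 lower (median log2 fold change -0.54), beside 31.7% of all genes. In KO vs. CreCtrl, 14 of 60 were DEGs, 3 higher and 11 lower (median 0.04), beside 15.6% of all genes. In KO vs. Ctrl 0 of 62 were DEGs (median -0.52), with 22 at an unadjusted edgeR p under 0.05 and a fold above 1.5, beside 12.0% of all genes, and 12 called by DESeq2, beside 7.27%. In the CreCtrl set the count fell to 5 without CreCtrl replicate 2 and to 8 without KO replicate 1 or KO replicate 2. In KO vs. WT the receptors and co-receptors counted 8 DEGs of 14 and the 18 intracellular transducers and nuclear factors 3, the latter a smaller share than the 31.7% of all genes.

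Among the ligands, 4 of 9 tested were DEGs and all 4 were lower, like Wnt5a. Wnt11, a ligand known for beta-catenin-independent signalling, went from 11.6 to 25.0 CPM in WT to 1.08 to 3.68 CPM in KO (log2 fold change -3.04, SE 0.57, adjusted p = 0.00361) and was also a DEG in KO vs. CreCtrl (-4.07, adjusted p = 0.00868). Wnt2b fell by 3.28 on the log2 scale in KO vs. WT (adjusted p = 0.0147), with -2.38 and -1.65 in the Ctrl and CreCtrl sets, where it was not called. Wnt9b had 9 to 26 counts in WT and 0 in its KO libraries, a level at least 19.8-fold lower by a floor of 3 counts over that group, and was too low for a test in the other sets.

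Of the 4 other secreted antagonists tested, 3 were lower and 1 higher in KO vs. WT. Dkk2 fell from 116 to 162 CPM in WT to 4.15 to 5.28 CPM (log2 fold change -4.82, SE 0.20, adjusted p = 1.30e-05) and was a DEG in KO vs. CreCtrl (-4.19, adjusted p = 0.0102). Sfrp2 was lower in the same comparisons (-4.81, adjusted p = 0.00272, and -2.01, adjusted p = 0.0302), and Sfrp4 in KO vs. WT only (-4.39, adjusted p = 0.0306). Sfrp2 and Sfrp4 belong to the family of Sfrp1 and Sfrp5, which rose in KO vs. WT. Of the R-spondins, which strengthen Wnt signals through Lgr receptors, Rspo3 fell by 5.86 and Rspo1 by 5.18 on the log2 scale in KO vs. WT (adjusted p = 0.00327 and 0.0103), and both were also DEGs in KO vs. CreCtrl (-4.35 and -4.54). Rspo2 did not pass in any set (log2 fold change -1.01, -0.12 and 0.53 against WT, Ctrl and CreCtrl), and Rspo4 was too low to be tested. Their receptor Lgr4 rose in KO vs. WT (log2 fold change 1.13, SE 0.21, adjusted p = 0.00361). It was not called against Ctrl (log2 fold change -0.22) or CreCtrl (0.32).

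Of the receptors, Ror1, a receptor for Wnt5a, went from 38.4 to 50.3 CPM in WT to 0 to 3.48 CPM in KO (log2 fold change -5.21, SE 1.09, adjusted p = 0.00629) and was a DEG in KO vs. CreCtrl (-3.16, adjusted p = 0.00804). Fzd1 was lower in the same comparisons (-3.34, adjusted p = 3.33e-05, and -1.21, adjusted p = 0.0451), and Fzd2 in KO vs. WT (-2.03, adjusted p = 0.00275). Tcf7l1, Tcf7l2 and Bcl9l, nuclear partners of beta-catenin, were lower in KO vs. WT (-1.37, -1.14 and -0.76, adjusted p = 0.00672, 0.00159 and 0.0101) and were not called in the other sets. Of the other targets, Tnfrsf19 rose in KO vs. WT (2.00, SE 0.18, adjusted p = 0.000102) and KO vs. CreCtrl (1.05, adjusted p = 0.0423). In KO vs. Ctrl it was not called (0.16). Myc, which is also an immediate-early response gene, fell in KO vs. WT and KO vs. CreCtrl (-1.94, adjusted p = 0.00900, and -2.53, adjusted p = 0.00703), and so did Ccn4 (-4.47, adjusted p = 0.00338, and -3.03, adjusted p = 0.0228). The targets of the list thus moved in both directions.

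**Figure D4:**
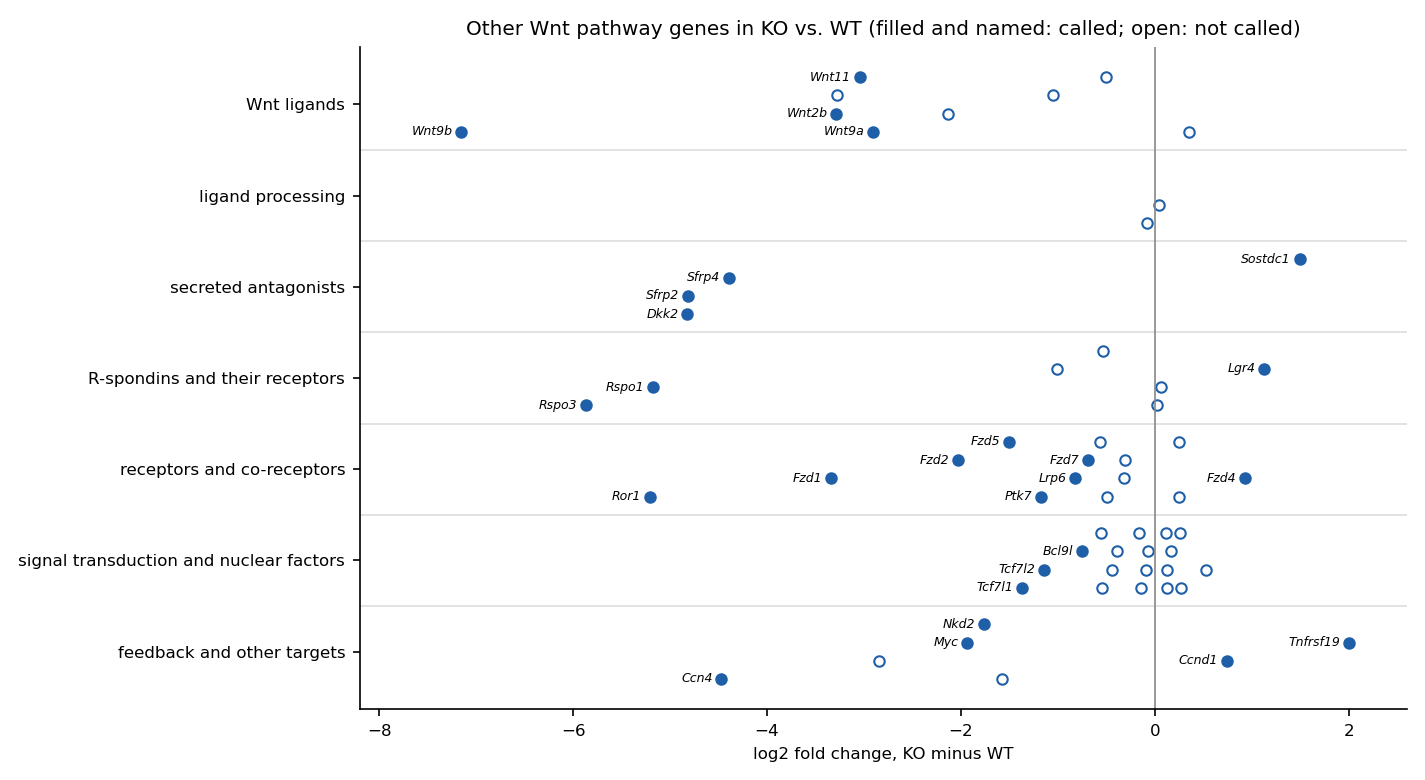
Log2 fold change (KO minus WT) of the 61 tested genes of the pathway list by role, with DEGs filled and named and the other genes open. Of the 27 DEGs 22 lie below 0, among them all 4 ligands called, and 5 above 0, and the point of Wnt9b is a fitted value for a gene at 0 in KO and no bound.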

How the data were processed

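RPE libraries of 14 mice were analysed. Per the labels and the methods, the authors prepared stranded poly(A) libraries, sequenced them as paired-end reads and aligned them to GRCm38 with STAR 2.5.2, and they deposited raw read counts per gene for each library, without normalization. The submitters' processing notes also name bcl2fastq 2.19, Cufflinks 2.1.1 and HTSeq 0.11.2 without roles. The strand setting and annotation release are not given in the sources used here. Gene positions came from GENCODE M21 (42329 of 42687 genes matched). KO libraries, all 7 of a single genotype in the labels, were assigned to sets by the naming scheme that their titles share with those of the controls. Per the methods, Ctrl mice came as littermates of KO mice. Which libraries share a litter is not given in the sources used here. The p-values weigh a difference against the spread between these mice, taken as independent.

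KO was compared with the controls of each set by edgeR 4.0.16 (R 4.3.3) with TMM factors, genes kept by filterByExpr, a quasi-likelihood test and Benjamini-Hochberg adjustment over all genes tested. SE is the log2 fold change divided by the root of the F statistic. The tests were tested on simulated data first. DESeq2 1.42.0, RLE factors, library size alone, other count filters (at least 1 count, or at least 10 in every library), a fit of all 14 libraries, a replicate block and leaving out each library were alternatives. Log2 CPM used a prior count of 2. The members and lists were chosen with earlier results of these data known, so their counts are descriptions. Named are every member, up to 3 called genes of each role of the pathway list with the largest change in KO vs. WT, and the 3 genes most like each called member. Marker lists of endothelial, myeloid, pericyte and smooth muscle, Mueller glia and rod cells were also read: summed endothelial markers were 32.5 to 136 CPM in KO and 99.7 to 537 CPM in control libraries, myeloid 743 to 2451 and 875 to 3086, pericyte and smooth muscle 298 to 484 and 541 to 2696, Mueller glia 1957 to 2636 and 1156 to 2321, and rod 117 to 1825 and 29.8 to 4667 CPM. Glul (mean 1236 CPM in WT and 2077 CPM in its KO libraries) made up most of the Mueller glia sum. Csf1r (537 and 770 CPM) made up most of the myeloid sum in those KO libraries. Log2 fold changes were negative for 4, 4 and 2 of 5 Mueller glia markers against WT, Ctrl and CreCtrl. For the 9 myeloid markers they were negative for 8, 3 and 8.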

Additional observations from a re-analysis of the deposited data

Results flagged for a closer look

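The KO effect on Wls was larger in the WT set than in the Ctrl set by 1.11 in log2 fold change (adjusted p = 0.0332 from edgeR's test of the difference), with all 3 KO libraries above all 3 WT libraries in the first and an overlap in the second. The KO effect on Sfrp1 differed between the same sets by 1.02 (adjusted p = 0.0410). Both were picked out because the test of the difference was passed. With a replicate block in the fit, neither passed it. Both calls were lost with RLE factors and with library size alone, and without 7 (Wls) and 9 (Sfrp1) of the 14 libraries when each was left out in turn, with adjusted p up to 0.222 and 0.255 without Ctrl replicate 2. The WT libraries also stood apart from the Ctrl libraries in fibroblast markers (7572 to 8090 CPM against 1126 to 1999 CPM) and RPE markers (17520 to 25985 CPM against 45926 to 46001 CPM), and the part of these in the differences was not tested. No member had a library far from the others among the 7 KO libraries by Dixon's criterion.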

How the results depend on the processing

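In KO vs. WT the count of members called (7) and of pathway genes (27) stayed within 1.5 times under every alternative, with 5 to 6 and 23 to 30 when a library was left out. In KO vs. Ctrl, members called went from 0 to 3 with DESeq2, 3 with every gene of at least 1 count and 2 in a fit of all 14 libraries. Calls over all genes went from 0 to 1111 of 15287, 1658 of 23965 and 647 of 17662 in the same order. Pathway genes went from 0 to 12, 16 and 5 in the same order. In KO vs. CreCtrl, members went from 2 to 4 (DESeq2), 1 (library size alone) and 4 (at least 1 count), and to 1 to 6 with a library left out, and pathway genes from 14 to 3 in the fit of all 14 libraries and to 5 to 20. Over all sets 3 to 6 members were called with a library left out. Members whose KO effect differed between sets went from 2 to 0 with RLE factors or library size alone, 4 with at least 1 count, 1 with at least 10 counts in every library, and 0 to 2 with a library left out. Scaling by library size alone put the median over all genes at -0.32, -0.11 and -0.24 (log2 fold change) for WT, Ctrl and CreCtrl.

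The uncalled log2 fold changes that changed sign were Sfrp1 in KO vs. Ctrl (-0.091 with library size alone, -0.019 with at least 10 counts, and -0.13 without Ctrl replicate 1 to 0.19 without Ctrl replicate 2), Frzb there (-0.10 without Ctrl replicate 2, and -0.17 without KO replicate 1 to 0.39 without Ctrl replicate 1), Axin2 there (-0.25 without KO replicate 2 to 0.045 without KO replicate 1) and Axin2 in KO vs. CreCtrl (-0.20 with library size alone, -0.026 with at least 10 counts, -0.07 without CreCtrl replicate 1, and -0.10 without KO replicate 2 to 0.16 without KO replicate 1). The cause was not tested.

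Whether replicate numbers pair the libraries was not settled. Same-numbered deviations correlated at -0.018, 0.073 and 0.185 (WT set), -0.0059 (Ctrl set) and 0.132 (CreCtrl set). Deviations in a group of 2 mirror each other, so the Ctrl and CreCtrl sets each hold a single value with either sign and cannot settle it. In the WT set the differently numbered pairs lay at -0.160 to 0.073. With the replicate block, 6 members were called against WT, 0 against Ctrl, 4 against CreCtrl and 5 over all sets, 27, 0 and 16 pathway genes, and 0 members differed between sets. Over all genes the block called 4543 of 15428 against WT, 113 of 15287 against Ctrl and 3762 of 15963 against CreCtrl.

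With 2 or 3 libraries a group and Frzb, Lef1 and Wif1 at low counts, depth and sample number limit these calls.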
